A study of Mus musculus with 4 samples.

Results

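The genes described here encode 8 enzymes that make cholesterol: Hmgcs1, Mvd, Idi1, Fdps, Sqle, Tm7sf2, Ebp and Sc5d, given in the order in which they act. They were chosen by gene symbol in the array's platform annotation, and 9 probes carried these symbols, of 25697 probes and 16593 named genes on the array. RNA came from intestinal epithelial cells of C57BL/6 mice and was hybridised to 4 single-colour Illumina bead arrays. The Ifnar1-/- group (2 arrays) lacked Ifnar1, which encodes a chain of the type I interferon receptor, and the Ifnar1+/+ group (2 arrays) kept it. In both groups Csnk1a1, which encodes casein kinase 1 alpha, a brake on Wnt signalling, had been deleted in the gut epithelium. The deletion used a Cre recombinase that is driven by the villin (Vil1) promoter and activated by tamoxifen, so the comparison holds no mouse with intact Csnk1a1. Tamoxifen was injected at 120 mg/kg on 2 days in a row, and the cells were taken 5 days after the last injection. The sources used here give neither the age of the mice nor whether 1 mouse or several supplied the RNA of a group. Every p-value below is thus set by how far these 4 samples scatter, and that scatter may be technical.

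Cholesterol is built from acetyl-CoA. The early enzymes make the isoprenoid units of the mevalonate pathway and join them into farnesyl diphosphate, from which non-sterol products also branch off, and Sqle opens the sterol branch by putting an oxygen onto squalene. After the ring system has closed, Tm7sf2, Ebp and Sc5d work on its double bonds in the endoplasmic reticulum. Transcription of these genes is raised by SREBP-2, a membrane-bound factor that is released when sterol in the endoplasmic reticulum is low. Enterocytes both make cholesterol and take it up from the gut lumen. In mouse macrophages, type I interferon raises Ch25h, whose product 25-hydroxycholesterol holds SREBP-2 back.

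The promoters of 4 of the 8 genes are printed to set Hmgcs1, the gene at the head of the pathway, beside the 3 late enzymes whose groups did not overlap. RefSeq promoter windows on GRCm38.p6, which run from 250 bases before to 50 bases after a gene's start, were found for 6 of the 8 genes. The 250 bases before the start are shown 5′ to 3′ in the gene's direction, and capitals mark matches on either strand to an SREBP consensus (TCACNCCAC), the NF-Y motif CCAAT, which reads ATTGG when it lies on the other strand, and an interferon-stimulated response element (GAAA, any 2 bases, GAAA).
Hmgcs1 (chr13:119690101-119690350, plus strand): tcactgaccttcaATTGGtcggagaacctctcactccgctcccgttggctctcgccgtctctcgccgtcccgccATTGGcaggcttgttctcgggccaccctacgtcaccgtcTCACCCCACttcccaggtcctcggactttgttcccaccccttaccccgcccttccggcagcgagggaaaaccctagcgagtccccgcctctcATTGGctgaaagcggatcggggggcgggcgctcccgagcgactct
Tm7sf2 (chr19:6067851-6068100, minus strand): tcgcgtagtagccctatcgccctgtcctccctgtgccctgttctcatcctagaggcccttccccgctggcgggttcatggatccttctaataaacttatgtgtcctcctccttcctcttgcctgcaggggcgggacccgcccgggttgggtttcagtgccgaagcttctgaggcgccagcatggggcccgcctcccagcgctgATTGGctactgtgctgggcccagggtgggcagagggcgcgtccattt
Ebp (chrX:8193513-8193762, minus strand): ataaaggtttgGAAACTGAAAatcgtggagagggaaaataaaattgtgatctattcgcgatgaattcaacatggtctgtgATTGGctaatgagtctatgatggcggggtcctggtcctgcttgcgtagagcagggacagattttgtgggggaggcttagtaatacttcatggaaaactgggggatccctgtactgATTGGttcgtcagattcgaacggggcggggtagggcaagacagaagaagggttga
Sc5d (chr9:42264301-42264550, minus strand): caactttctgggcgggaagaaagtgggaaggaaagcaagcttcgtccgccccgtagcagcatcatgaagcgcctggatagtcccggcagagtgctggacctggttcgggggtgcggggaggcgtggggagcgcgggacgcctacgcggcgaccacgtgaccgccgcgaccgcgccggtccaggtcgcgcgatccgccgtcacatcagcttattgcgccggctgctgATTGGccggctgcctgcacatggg
Over the full windows, the SREBP consensus was found in 1 of the 6 genes, Hmgcs1, against 1.24% of all 32851 windows. CCAAT, bound by NF-Y, a factor that works together with SREBPs, was found in 6 of 6, against 37.4% of all windows. The Sp1 motif GGGCGG, left in lower case, was likewise found in 6 of 6, against 35.7%. The interferon-stimulated response element was found in Ebp alone, against 3.44%. None of the matches in these 6 windows overlapped a match to another motif (0 overlaps). A match describes the letters in the window and not a bound site.

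The median raw signal was 157.8 and 151.3 for Ifnar1-/- cells and 145.3 and 143.5 for Ifnar1+/+ cells, and 11234 to 11954 probes were detected per array, meaning a deposited detection p under 0.05. Precision is limited by the number of arrays. The 2 Ifnar1-/- arrays were over 1 log2 unit apart in 7.38% of the 8442 genes tested, while a gap of that size separated the 2 Ifnar1+/+ arrays in 1.69%. The probes for Ifnar1 and Csnk1a1 were below the detection threshold throughout, so they check neither genotype. Colon is the labelled tissue, but the protocol isolates small-intestinal cells. Epithelial markers were detected on every array for 7 of 7 genes with a probe, Paneth cell markers for 4 of 4 and absorptive enterocyte markers for 8 of 10, with Fabp1 and Fabp2 detected on none. Sums over several marker lists moved with the groups. Interferon-stimulated genes had a lower mean in Ifnar1-/- cells for 11 of 11 genes tested, with summed background-corrected intensities of 1346 and 1924 in Ifnar1-/- cells and 4440 and 6249 in Ifnar1+/+ cells. Of that list, Ifit1 and Mx1 were detected on no array. A probe was tested if detected on 2 or more arrays. Oas2 and the Ifit2 probe used were kept through the Ifnar1+/+ arrays alone and so had to be lower. T cell markers were lower for 7 of 7 (sums 206.9 and 434.1 in Ifnar1-/- cells, 1076 and 883.9 in Ifnar1+/+ cells), with Cd8a, Gzma, Gzmb and Cd7 detected on no array. Cd3d was likewise kept through the Ifnar1+/+ arrays alone. Absorptive enterocyte markers were lower for 7 of 8 (57860 and 103300 in Ifnar1-/- cells, 124900 and 108000 in Ifnar1+/+ cells), and proliferation genes were higher for 7 of 7 (6805 and 5002 in Ifnar1-/- cells, 3347 and 3803 in Ifnar1+/+ cells). Paneth cell markers had a higher mean for 4 of 4 (73170 and 55960 in Ifnar1-/- cells, 43130 and 34280 in Ifnar1+/+ cells). Lyz1 made up most of these sums, and the levels of Itln1 overlapped, being high on Ifnar1-/- array 1 alone. Goblet cell markers had a lower mean for 4 of 5 but sums that overlapped (58060 and 26000 in Ifnar1-/- cells, 44180 and 40100 in Ifnar1+/+ cells). Fibroblast and smooth muscle markers were lower for 6 of 7 (818.4 and 535 in Ifnar1-/- cells, 3433 and 867.9 in Ifnar1+/+ cells). Vim, in the last list, was also kept through the Ifnar1+/+ arrays alone. B and plasma cell markers were lower for 3 of 3 (62.12 and 57.95 in Ifnar1-/- cells, 86.89 and 134.5 in Ifnar1+/+ cells). Among these, Cd79b and Pou2af1 were kept through the Ifnar1+/+ arrays alone and so had to be lower, and the levels of Mzb1 overlapped. Of the myeloid markers 1 was tested, Fcer1g, and its levels overlapped (32.29 and 79.58 in Ifnar1-/- cells, 194.2 and 70.26 in Ifnar1+/+ cells). In bulk RNA, fewer cells of a type and less RNA per cell cannot be told apart. The part of these differences in the results below was not tested.

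All 8 enzymes were tested, though Sc5d was not detected on either Ifnar1-/- array. The comparison asks whether loss of the interferon receptor goes with another level of their mRNA. None of them passed the test (limma, Benjamini-Hochberg adjusted p under 0.05 over all genes), as was so for all 8442 genes, of which 0% were called. At an unadjusted p under 0.05, 1 of the 8 was lower, Tm7sf2, and 0 were higher, against 5.27% lower and 4.25% higher of all genes (9.52% in either direction). That unadjusted p of Tm7sf2 was 0.0357, and it was 0.0573 with the replicate number as a block, 0.0581 with an intensity trend, 0.104 under median scaling and 0.0949 without background correction. Over the alternatives that kept all arrays it ran from 0.0149, with every probe kept, to 0.104, so it lay on both sides of 0.05. Of the 8, 6 had a lower mean in Ifnar1-/- cells and 2 a higher one, against 47% and 53% of all genes. The median log2 difference, Ifnar1-/- minus Ifnar1+/+, was -0.32 over the 8, against 0.03 over all genes tested, and it was -0.06 without Ifnar1+/+ array 2. For 3 of the 8 the 2 Ifnar1-/- values lay below both Ifnar1+/+ values, against 19.5% of all genes, and for 0 of the 8 above, against 23.9% (43.4% in either direction). Those 3 were Tm7sf2, Ebp and Sc5d, the late sterol enzymes. Sc5d passed the filter on dim probes through the Ifnar1+/+ arrays alone and so had to differ, and the other 7 enzymes hold 2 of the 3. Without Ifnar1-/- array 1 the count of such lower enzymes was 6 of 8, against 34.1% of all genes in that fit, and without Ifnar1+/+ array 1 it was also 6 of 8, against 30.1%. Sc5d is in both of these counts, in the 6 with a lower mean and in the median over the 8.

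**Figure D1:**
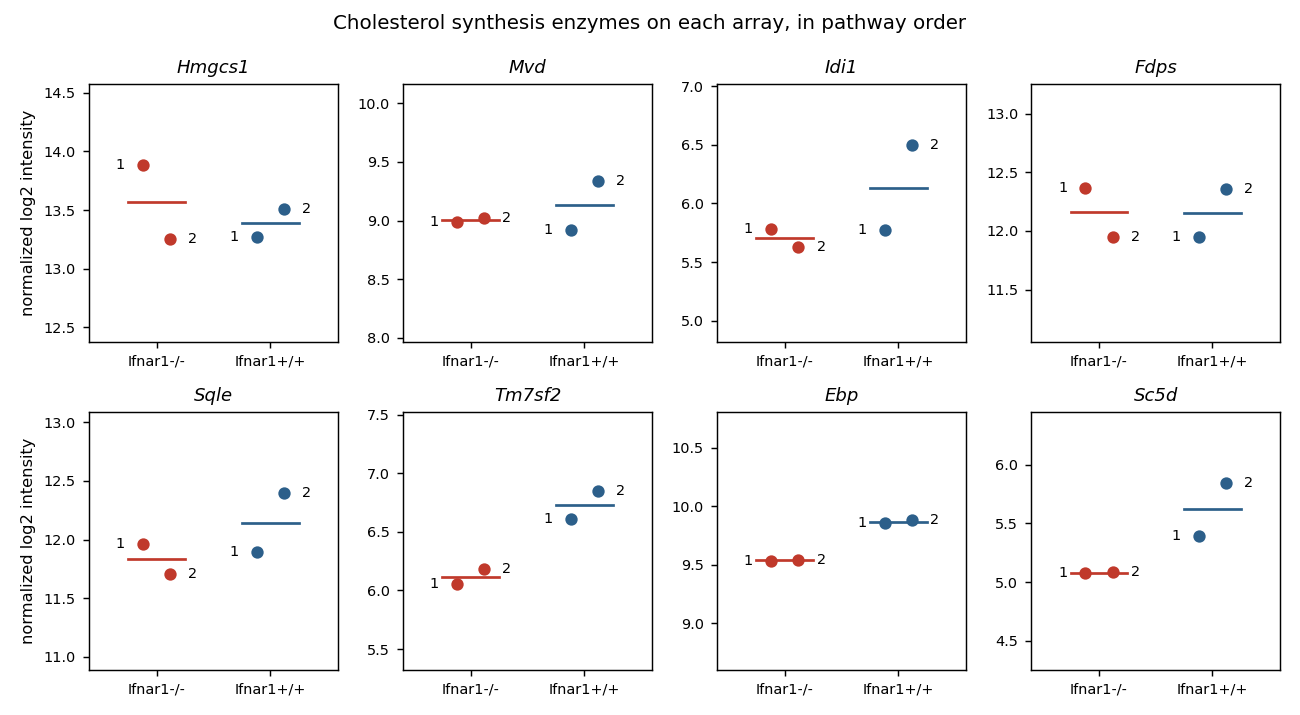
Normalized log2 intensity of the 8 enzymes on the 2 Ifnar1-/- arrays (red) and the 2 Ifnar1+/+ arrays (blue), numbered by array, with lines at the group means and the same span on every vertical axis. The groups are apart for Tm7sf2, Ebp and Sc5d and overlap for the other 5.

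Hmgcs1 encodes the cytosolic HMG-CoA synthase, which joins acetyl-CoA to acetoacetyl-CoA. Its normalized log2 intensity was 13.88 and 13.25 on Ifnar1-/- arrays 1 and 2, and 13.27 and 13.51 on Ifnar1+/+ arrays 1 and 2. Ifnar1-/- array 1 was the highest of the 4 and Ifnar1-/- array 2 the lowest, so the groups overlapped. The log2 difference was 0.18 ± 0.29 (SE, n = 2 per group; limma adjusted p = 0.855). Leaving out Ifnar1-/- array 1 gave -0.14 and leaving out Ifnar1-/- array 2 gave 0.49, so its sign rests on single arrays. The gap between the 2 Ifnar1-/- arrays, 0.64, was larger than in 89.5% of genes.

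Mvd, the decarboxylase that makes isopentenyl diphosphate, lay at 8.99 and 9.02 in Ifnar1-/- cells and at 8.92 and 9.33 in Ifnar1+/+ cells. Both Ifnar1-/- values lay between the 2 Ifnar1+/+ values, and the log2 difference was -0.12 ± 0.25 (SE; limma adjusted p = 0.887). Without Ifnar1+/+ array 2 it was 0.08.

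Idi1, the isomerase that turns isopentenyl into dimethylallyl diphosphate, was a dim probe, at 5.78 and 5.63 in Ifnar1-/- cells and 5.77 and 6.50 in Ifnar1+/+ cells. Only Ifnar1+/+ array 2 stood clear of the rest. The log2 difference was -0.43 ± 0.30 (SE; limma adjusted p = 0.638), and it was -0.07 without that array, -0.79 without Ifnar1+/+ array 1 and -0.16 without background correction.

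Fdps, which joins the isoprenoid units into farnesyl diphosphate, lay at 12.37 and 11.95 in Ifnar1-/- cells and 11.95 and 12.36 in Ifnar1+/+ cells. The 2 groups covered the same range, and the log2 difference was 0.01 ± 0.27 (SE), with a 95% interval of -0.64 to 0.66. It was -0.20 without Ifnar1-/- array 1 or without Ifnar1+/+ array 1, and 0.21 without either of the other arrays.

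Sqle, the squalene epoxidase, a rate-limiting step of the sterol branch, had 2 probes. The brighter lay at 11.96 and 11.71 in Ifnar1-/- cells and 11.89 and 12.40 in Ifnar1+/+ cells, with a log2 difference of -0.31 ± 0.27 (SE; limma adjusted p = 0.705). The dimmer probe read 9.25 and 8.55 in Ifnar1-/- cells and 8.97 and 9.68 in Ifnar1+/+ cells, a log2 difference of -0.42. Both probes put Ifnar1+/+ array 2 highest and Ifnar1-/- array 2 lowest, and on both the groups overlapped. With 1 array left out, the difference of the brighter probe ran from -0.56 to -0.06.

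Tm7sf2 reduces a ring double bond that is left when lanosterol is demethylated. Its deposited raw signal was 198.7 and 192.6 in Ifnar1-/- cells and 214.6 and 208.2 in Ifnar1+/+ cells, and its normalized log2 intensity was 6.05 and 6.18 in Ifnar1-/- cells and 6.61 and 6.85 in Ifnar1+/+ cells. Both Ifnar1-/- arrays were below both Ifnar1+/+ arrays before and after normalization. The log2 difference was -0.61 ± 0.23 (SE, n = 2 per group), or 1.52-fold lower, with a 95% interval of -1.16 to -0.06 from the limma fit. After adjustment over all genes p was 0.511, and by p it ranked 576 of 8442 genes. The probe is dim, and without background correction the difference was -0.26.

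Ebp, the isomerase that moves a double bond within the sterol ring, was nearly the same on the arrays of a group. It lay at 9.54 and 9.54 in Ifnar1-/- cells and 9.86 and 9.88 in Ifnar1+/+ cells. The groups were apart, by a log2 difference of -0.33 ± 0.22 (SE; limma adjusted p = 0.625), or 1.26-fold. The gap within a group was 0.01 for the Ifnar1-/- arrays and 0.03 for the Ifnar1+/+ arrays, but the SE is larger because limma draws each gene's variance toward that of all genes. Its raw signals, 976.2 and 867.9 in Ifnar1-/- cells and 1068.3 and 900.5 in Ifnar1+/+ cells, overlapped before the arrays were scaled to each other.

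Sc5d, which puts a further double bond into the ring shortly before cholesterol is complete, was at the edge of detection. Its raw signal was 156.9 and 150.6 in Ifnar1-/- cells, with detection p-values of 0.0852 and 0.129, and 156.0 and 162.8 in Ifnar1+/+ cells, with detection p-values of 0.0288 and 0.00877. It was thus detected on the Ifnar1+/+ arrays but stayed within the background of both Ifnar1-/- arrays, and it entered the test through the Ifnar1+/+ arrays alone. Normalized log2 intensities were 5.08 and 5.08 in Ifnar1-/- cells and 5.40 and 5.85 in Ifnar1+/+ cells, and the raw signals overlapped. The fitted log2 difference was -0.54 ± 0.25 (SE; limma adjusted p = 0.538). It was -0.32 without Ifnar1+/+ array 2 and -0.17 without background correction, and no fold is given for it.

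**Figure D2:**
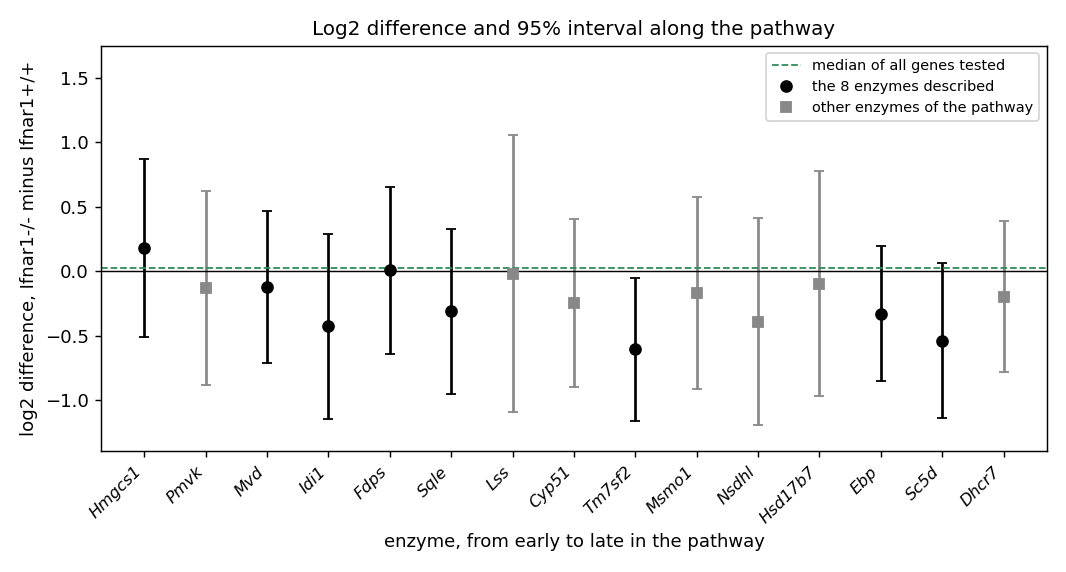
Log2 difference, Ifnar1-/- minus Ifnar1+/+, with its 95% interval from the limma fit, for the 8 enzymes (circles) and 7 other enzymes of the pathway (squares), ordered from early to late, and the median of all genes tested as a dashed line. The interval of Tm7sf2 leaves out 0, and those of the other 14 genes include it.

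The rest of the pathway was read from a list of 13 further enzymes, of which 8 had a probe and 7 were tested; the probes of Ggps1, a branch-point enzyme that makes geranylgeranyl diphosphate, were detected on no array, and the remaining 5 genes were not analysed here. None of the 7 passed, 0 had an unadjusted p under 0.05, and the groups overlapped for 7 of 7. All 7 had a lower mean in Ifnar1-/- cells, against 47% of all genes, with log2 differences of -0.39 to -0.02, though Hsd17b7 and Lss turned higher under median scaling. The lowest was Nsdhl, a dehydrogenase needed to remove methyl groups from the ring, at 8.26 and 7.998 in Ifnar1-/- cells and 8.08 and 8.96 in Ifnar1+/+ cells (-0.39 ± 0.33, SE; limma adjusted p = 0.704). The log2 differences of its 4 kept probes ran from -0.39 to 0.15 and so disagreed in direction. Cyp51, the lanosterol demethylase whose product Tm7sf2 takes over, differed by -0.25 ± 0.27 (SE), and Dhcr7, which makes cholesterol from the diene that Sc5d leads to, by -0.20 ± 0.24 (-0.39 to -0.003 with 1 array left out). The methyl oxidase gene Msmo1 differed by -0.17 ± 0.31, the kinase gene Pmvk by -0.13 ± 0.32 and the ketoreductase gene Hsd17b7 by -0.10 ± 0.36. Over the 15 enzymes tested, 13 had a lower mean and the median was -0.20; without Ifnar1+/+ array 2, 8 had a lower mean, and without Ifnar1-/- array 1 the median was -0.51.

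Array by array, many of the enzymes shared an order that cut across the genotypes. Lss, which folds oxidised squalene into lanosterol, lay at 9.94 and 8.69 in Ifnar1-/- cells and 8.999 and 9.67 in Ifnar1+/+ cells. It was high on Ifnar1-/- array 1 and Ifnar1+/+ array 2 and low on the other array of each genotype, with a log2 difference of -0.02 ± 0.45 (SE). Hsd17b7 had the same order, at 11.47 and 10.60 in Ifnar1-/- cells and 10.83 and 11.43 in Ifnar1+/+ cells. The opposite order, with Ifnar1-/- array 2 and Ifnar1+/+ array 1 the higher of their groups, was seen for 0 of the 15. Over all 8442 genes tested it was seen for 2244. For 9 of the 15 enzymes Ifnar1-/- array 1 exceeded Ifnar1-/- array 2 while Ifnar1+/+ array 2 exceeded Ifnar1+/+ array 1. Of all genes tested, 25.6% had this order. Among the 8 enzymes those with it were Hmgcs1, Idi1, Fdps and Sqle. The early enzyme Mvd and the late enzymes Tm7sf2, Ebp and Sc5d were not among them. Their Ifnar1-/- arrays differed by -0.03, -0.13, -0.01 and -0.01 (array 1 minus array 2). The same order within each genotype held for 6 of 7 proliferation genes, 5 of 9 fatty acid synthesis genes and 0 of 8 absorptive enterocyte genes. All 7 proliferation genes had both Ifnar1-/- arrays above both Ifnar1+/+ arrays, so for them the order did not cut across the genotypes. This reading of the arrays was chosen after the values were seen, and it has no test.

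**Figure D3:**
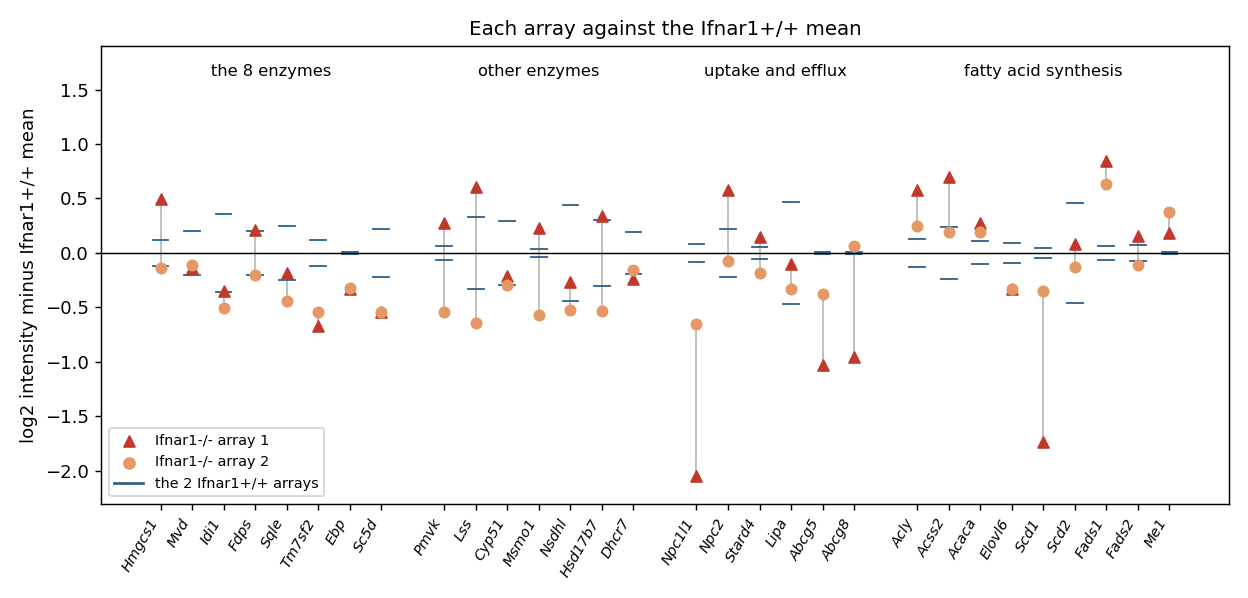
Log2 intensity of each Ifnar1-/- array (array 1 as triangles, array 2 as circles) and of the 2 Ifnar1+/+ arrays (short lines), each minus the Ifnar1+/+ mean of the gene. The 2 Ifnar1-/- arrays coincide for Ebp and Sc5d, lie 1.25 apart for Lss, and lie 1.39 apart for Npc1l1.

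Relatives of the late enzymes were read beside them. Lbr, the lamin B receptor, carries out the same sterol reduction as Tm7sf2 in the inner nuclear membrane. It lay at 12.39 and 11.63 in Ifnar1-/- cells and 11.64 and 11.81 in Ifnar1+/+ cells, a log2 difference of 0.29 ± 0.31 (SE; limma adjusted p = 0.765), high on Ifnar1-/- array 1 alone. Without that array it was -0.09. Ebpl, a relative of Ebp with no known isomerase activity, lay at 10.19 and 10.71 in Ifnar1-/- cells and 10.82 and 10.95 in Ifnar1+/+ cells, so its groups were apart as those of Ebp were (-0.43 ± 0.26, SE; limma adjusted p = 0.605). Leaving out Ifnar1-/- array 1 gave -0.18 for Ebpl and leaving out Ifnar1-/- array 2 gave -0.69. A second, dimmer probe differed by -0.78, but it was kept through the Ifnar1+/+ arrays alone and so had to be lower. The probes of Idi2, a relative of Idi1, were detected on no array.

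Genes that sense sterol gave no call either: of 15 listed, 11 were tested, 9 had a lower mean, against 47% of all genes, and 4 were lower without overlap, against 19.5%. Mbtps1 encodes the protease that makes the first cut in releasing SREBP. It lay at 8.61 and 8.75 in Ifnar1-/- cells and 9.03 and 9.23 in Ifnar1+/+ cells (-0.45 ± 0.23, SE; limma adjusted p = 0.556). Its other 2 kept probes differed by -0.16 and -0.05, and the mean of the 3 by -0.22. Nr1h3, the oxysterol receptor LXR alpha, lay at 7.95 and 8.60 in Ifnar1-/- cells and 9.16 and 8.80 in Ifnar1+/+ cells (-0.70 ± 0.30; limma adjusted p = 0.524), and its difference was -0.38 without Ifnar1-/- array 1. Outside the naming rule, and chosen for their roles after their values were seen, Srebf2, which encodes SREBP-2, lay at 9.59 and 9.94 in Ifnar1-/- cells and 9.77 and 9.84 in Ifnar1+/+ cells. Insig1, a target of SREBP-2 that retains it in the membrane, lay at 8.29 and 7.34 in Ifnar1-/- cells and 7.74 and 7.93 in Ifnar1+/+ cells. The 3 kept probes of Insig1 disagreed, with log2 differences of -0.02, 0.23 and 0.57, and the last had both Ifnar1-/- arrays above both Ifnar1+/+ arrays. Ch25h was detected on 1 array, Ifnar1+/+ array 2, and was not tested: its raw signal was 151.8 and 135.3 in Ifnar1-/- cells and 130.7 and 152.5 in Ifnar1+/+ cells.

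Uptake and efflux genes gave no call either. Of 6 tested, 5 had a lower mean in Ifnar1-/- cells, against 47% of all genes, and 2 were lower without overlap, against 19.5%. Npc1l1, the transporter through which enterocytes take up cholesterol, lay at 9.42 and 10.81 in Ifnar1-/- cells and 11.38 and 11.55 in Ifnar1+/+ cells. Both Ifnar1-/- arrays were lower, array 1 by far the most, and the log2 difference was -1.35 ± 0.45 (SE; unadjusted p = 0.0207, limma adjusted p = 0.499). Ifnar1-/- array 2 alone gave -0.65 and Ifnar1-/- array 1 alone gave -2.05. Abcg5, one of the paired transporters that return sterol to the lumen, lay at 12.30 and 12.95 in Ifnar1-/- cells and 13.31 and 13.34 in Ifnar1+/+ cells (-0.70 ± 0.28; limma adjusted p = 0.522), and at -0.38 without Ifnar1-/- array 1. Beside these, the summed absorptive enterocyte markers given above were also lowest on Ifnar1-/- array 1, and their part in these values was not tested.

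Fatty acid synthesis, which the related factor SREBP-1 controls, was read from a list of 10 genes, of which 9 were tested. In this list 6 had a higher mean in Ifnar1-/- cells, against 53% of all genes, 4 were higher without overlap, against 23.9%, and 2 were lower without overlap, against 19.5%, with a median log2 difference of 0.23. Fads1, a desaturase of polyunsaturated fatty acids, lay at 11.93 and 11.72 in Ifnar1-/- cells and 11.03 and 11.15 in Ifnar1+/+ cells (0.74 ± 0.23, SE; unadjusted p = 0.016, limma adjusted p = 0.499). Scd1, the stearoyl-CoA desaturase, went the other way, at 6.26 and 7.65 in Ifnar1-/- cells and 8.04 and 7.94 in Ifnar1+/+ cells (-1.04 ± 0.44; limma adjusted p = 0.524). Scd1 differed by -0.35 when Ifnar1-/- array 1 was left out, by -1.73 when Ifnar1-/- array 2 was, and by -0.58 when the background was left in.

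Of the alternatives, 4 recomputed the levels themselves: median scaling, an offset of 50, the background left in, and the deposited normalized values. Under these the difference of Ebp ran from -0.32 to -0.22 and that of Tm7sf2 from -0.50 to -0.26. The groups of both genes did not overlap under median scaling, where 14.2% of all genes were lower without overlap, against 19.5% as reported. An offset of 50, the background left in and the deposited values keep nearly the same ranks and give all arrays 1 distribution. Overlap could thus hardly change under them: the groups were again apart, at 19.4% to 19.5% of all genes. The other settings that kept all arrays changed the fit or the choice of probes and left both differences as they were, and leaving out an array cannot make such groups overlap. Sc5d, which had to differ, is not counted with them. No alternative gave an adjusted p under 0.05 for any of the 8 enzymes, the smallest being 0.149, for Tm7sf2 without Ifnar1-/- array 2.

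**Figure D4:**
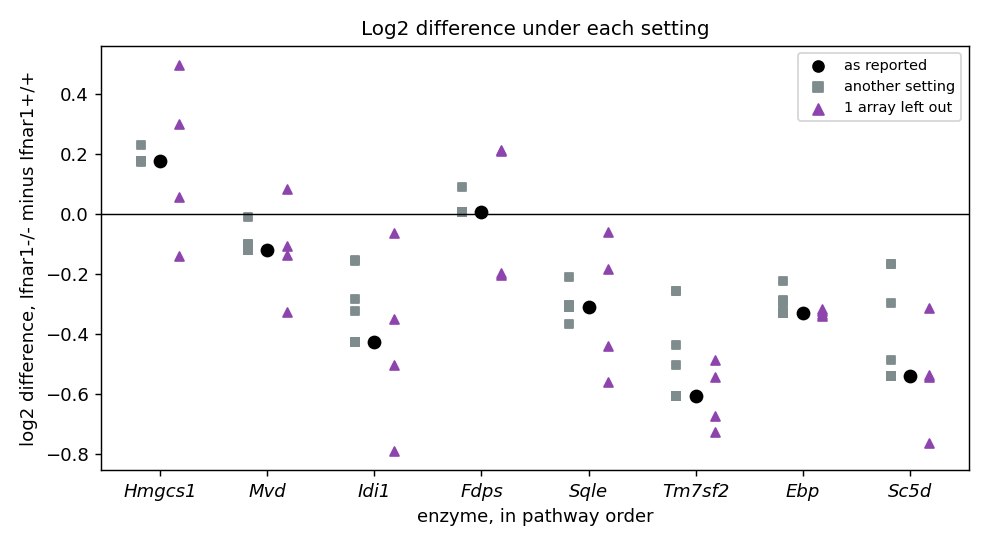
Log2 difference, Ifnar1-/- minus Ifnar1+/+, of each enzyme as reported (black circles), under other processing settings (grey squares) and with 1 array left out (purple triangles). The points of Hmgcs1, Mvd and Fdps lie on both sides of 0 and those of the other 5 below it, which leaving out an array cannot change for the 3 genes whose groups do not overlap.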

How the data were processed

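Per the file headers and the submitters' processing notes, the deposited raw intensity values are bead signals exported with GenomeStudio 1.8, each with a deposited detection p-value against the array's negative controls. The deposited normalized intensity values share 1 distribution over the arrays (93.1 to 57820.3, linear, Spearman 0.999999 with each array's own raw signals), no source used here says how they were made, and they served as an alternative. Raw intensities were background corrected from the detection p-values, quantile normalized and log2 transformed (neqc, limma 3.58.1 in R 4.3.3, offset 16). A probe was kept if 2 or more arrays gave it a detection p under 0.05 (11884 probes), and the brightest kept probe stood for each of 8442 genes, with symbols from the platform annotation. Groups came from the sample titles. Arrays lay on 1 chip, with position following group, so chip position and group cannot be told apart. lmFit and eBayes (limma, two-sided; 2 residual degrees of freedom, prior 4.54) were fitted to the 4 arrays with no covariate, p-values were adjusted by Benjamini-Hochberg over the 8442 genes, and the scripts were tested on simulated data. Summed marker levels add normalized intensities of tested genes, less the offset.

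Named genes were the 8 enzymes, all listed pathway genes and relatives, and in other lists those with an unadjusted p under 0.05 and the 2 with the smallest p; for the marker lists only counts and sums are given. The 8 enzymes and all lists were chosen with earlier results of these data known. The fit was repeated with each of these changed: background left in, offset 50, scaling by the median, deposited normalized values, every probe kept, a stricter filter (detection p under 0.01 in all 4 arrays), probes averaged per gene, eBayes with an intensity trend, weighted arrays, replicate number as a block, and 1 array left out, when the lone array of a group is assumed to vary like the other group. Plots used matplotlib 3.10.9 (Python 3.11.15).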

Additional observations from a re-analysis of the deposited data

How the results depend on the processing

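Precision rests on 2 arrays per group, and the differences of the dim probes of Idi1, Tm7sf2 and Sc5d were smaller without background correction (-0.16, -0.26 and -0.17). The count of genes called in the limma fit was 0 as reported and under each alternative that kept all arrays (804 genes at an unadjusted p under 0.05), and 0 to 14 with 1 array left out: 5 without Ifnar1+/+ array 1 and 14 without Ifnar1+/+ array 2, none of them among the 8 enzymes. With 1 array left out, the median over the 8 enzymes ran from -0.45 to -0.063, the number with a lower mean from 5 to 8 and the number lower without overlap from 3 to 6. Sc5d, which had to differ, is counted in each of these. Over the 15 enzymes tested, the median then ran from -0.51 to -0.003 and the number with a lower mean from 8 to 15. Signs turned with 1 array left out for Hmgcs1 (-0.14 to 0.49), Mvd (-0.33 to 0.083), Fdps (-0.20 to 0.21), Nsdhl (-0.83 to 0.047), Cyp51 (-0.54 to 0.042), Msmo1 (-0.57 to 0.23), Pmvk (-0.54 to 0.27), Hsd17b7 (-0.53 to 0.34), Lss (-0.65 to 0.60) and Lbr (-0.093 to 0.66). Under median scaling, which puts the median of all genes at 0.11 against 0.03 as reported, Hsd17b7 was at 1e-04 and Lss at 0.067; the cause was not tested. The strict filter left 6 of the 8 enzymes, without Idi1 and Sc5d, at a median of -0.22. Same-numbered arrays did not deviate together (correlation -0.05 over genes), and the replicate block gave 0 calls, with an adjusted p of 0.562 for Tm7sf2 against 0.511 without the block and an unadjusted p of 0.0573 against 0.0357.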

Other observations

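Outside the pathway lists, the 3 genes whose centred log2 values over the 4 arrays lay closest to the mean profile of the 8 enzymes were Sh3bp2, Wdfy1 and Ctsr, at root mean square distances of 0.02, 0.02 and 0.03 log2 units. The mean profile was -0.05 and -0.22 on Ifnar1-/- arrays 1 and 2 and -0.05 and 0.32 on Ifnar1+/+ arrays 1 and 2, so it sets Ifnar1+/+ array 2 apart from the other arrays. A likeness over 4 arrays is a description of these arrays only.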
